A study of Macaca mulatta with 12 samples.

Results

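The genes described here encode the machinery that drives the cell cycle and copies DNA, measured in 3 embryonic stem (ES) cell lines and in skin fibroblasts of the rhesus macaque. They were chosen by symbol alone: cyclins A, B, D, E and F, numbered cyclin-dependent kinases (CDKs), CDKN, CDC, MCM, ORC, GINS, AURK and E2F symbols, PCNA, MKI67 and TOP2A, with CDC42 and its relatives left out. No measured value enters that rule, but it was set with earlier results of these data known. It gave 79 genes of the 14132 that the array's annotation names, read by 154 probe sets. Where several probe sets read a gene, the brightest on average stands for it. Of the reference table's symbols that the same pattern takes in, 18 were not analysed here: CCND2, CDC7, CDC20, CDC23, CDC27, CDC34, CDC37L1, CDC40, CDC123, CDK5, CDK18, CDK20, CDKN1C, CDKN2B, E2F6, MCM6, MCM7 and ORC6.

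Each cell population was measured on 3 arrays, replicates A, B and C. ORMES-9 is described as a homozygous parthenogenetic line, whose cells hold maternal alleles only, although its source field names a blastocyst from in vitro fertilisation, and it was analysed here as parthenogenetic. The rPESC-2 line is described as a heterozygous parthenote from a parthenogenetic blastocyst. ORMES-22 comes from a fertilised blastocyst and is the biparental line. All 3 ES lines are labelled female, were cultured on growth-arrested mouse embryonic fibroblast feeders, and were sampled as undifferentiated colonies, at passages 13, 14 and 16 (ORMES-9), 16, 10 and 16 (rPESC-2) and 18, 21 and 19 (ORMES-22). The fibroblasts were the somatic control, taken with collagenase from the back skin of a male macaque aged 9 years and grown without feeders, in the same gas mixture, and their passage and growth state are not given. Sex, age, feeders and cell type therefore differ together between the ES lines and the fibroblasts, and each parental type is 1 line.

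A cell passes G1, S, G2 and M phases through waves of CDK activity. D-type cyclins with CDK4 or CDK6, and E-type cyclins with CDK2, phosphorylate the retinoblastoma protein and so free E2F transcription factors to switch on S phase genes. Inhibitors of the INK4 family block CDK4 and CDK6, and those of the CIP/KIP family bind CDK complexes more widely. Replication origins are marked by the origin recognition complex (ORC), loaded with the MCM helicase with the help of CDC6, and fired when CDC45 and GINS join it. ES cells are known for rapid division with a short G1 phase.

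Values are log2 expression levels of probe sets, so a difference of 1 is a 2-fold change. A gene was called higher or lower when limma, a linear model fitted to all 52766 probe sets, gave a Benjamini-Hochberg adjusted p under 0.05 and the groups differed 2-fold or more. Levels of different probe sets cannot be set against each other. Bacterial poly-A control probe sets had a 90th percentile of 4.26, taken here as the background, and 75 of the 79 genes exceeded it on all 12 arrays. CCNB3, a B-type cyclin known mainly from the germ line, exceeded it on none (3.61 to 4.03). ORMES-22 replicate A stood apart: against the mean of its 2 sister arrays, 316 of all genes were 2-fold or more above and 179 below. Over all probe sets it correlated more closely with the rPESC-2 arrays (Pearson r 0.9882 to 0.9896) than with its sister arrays (0.9855 and 0.9844). The reason was not tested. Values without replicate A are therefore given where it moves a result. ES markers POU5F1 and SOX2 read at least 12.62 and 11.66 on every ES array, against at most 5.26 and 4.09 in fibroblasts, where SOX2 was not above background. SALL4, DPPA4 and DNMT3B were also called higher in the ES lines. The NANOG probe set went against the labels, at 7.71 to 8.79 on the ES arrays and 9.50 to 9.55 in fibroblasts. The ZFP42 probe set was near the background on the ES arrays (4.32 to 4.58) and did not tell the groups apart (0.10, limma adjusted p = 0.23). Fibroblast markers LUM and FAP had means under the background in every ES line, while the THY1 and DCN probe sets went against the list, with ES lines above fibroblasts by 0.31 and 0.43. The replicates are labelled biological without further detail, so p-values cover the spread between arrays or cultures within a line only.

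The comparison of the ES lines with fibroblasts placed pluripotent cells beside a somatic cell type. ES cells held more transcript of most of the replication machinery and of several mitotic kinases and phosphatases, and less of D-type cyclins, CDK6 and 3 CDK inhibitors. Of the 79 genes, 30 were higher in the ES lines (38.0%), where 14.5% of all genes were called higher. A further 7 were lower (8.86%), where 12.9% of all genes were called lower, and 42 were not called. The median difference over the 79 genes was 0.46, against 0.15 over all genes tested. In whole-culture RNA, a larger share of cells in a cycle phase and more RNA per cell cannot be told apart.

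**Figure D1:**
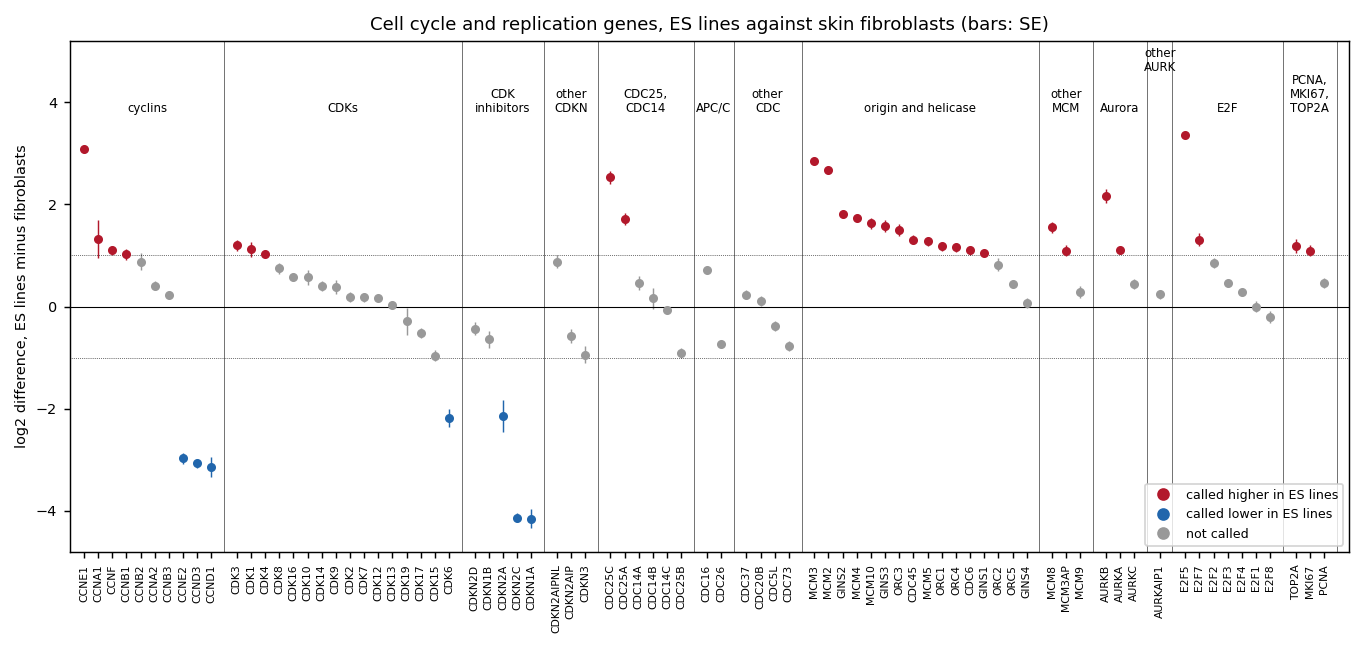
Log2 difference of each of the 79 genes, mean of the 3 ES lines minus fibroblasts, with its standard error as a bar, grouped by role and coloured by call. Dotted lines mark a 2-fold difference. Of the 16 origin and helicase genes 13 lie above the upper line with a call (81.2%, beside 14.5% of all genes). CDKN1A and CDKN2C lie lowest, at −4.15 and −4.13.

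Cyclins, which give CDKs their activity and timing, split within families. Of 10 measured, 4 rose in the ES lines (CCNE1, CCNA1, CCNF and CCNB1) and 3 fell (CCND1, CCND3 and CCNE2). CCND1, the D-type cyclin that couples growth signals to G1, read 7.68 at the lowest, 8.09 at the median and 9.0 at the highest of the 9 ES arrays, against 11.55, 11.41 and 11.01 in fibroblasts. It fell by 3.14 (8.82-fold, SE 0.20, adjusted p = 3.1e-08), with no overlap between the groups. CCND3, its relative, read 6.72, 6.94 and 7.05 (lowest, median and highest ES array) and 9.99, 9.84 and 10.07 in fibroblasts, and was 8.37-fold lower. Both measured D-type cyclins were thus lower on every ES array than on any fibroblast array.

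The E-type cyclins, which pair with CDK2 at the start of S phase, moved in opposite directions. CCNE1 read 9.80, 9.94 and 10.28 (lowest, median and highest ES array), against 6.80, 6.94 and 6.90 in fibroblasts, a rise of 3.08 (8.48-fold, SE 0.08, adjusted p = 7.8e-12). CCNE2 read 4.70, 4.97 and 5.27 on the ES arrays, against 8.03, 7.99 and 7.78 in fibroblasts, and fell by 2.97 (SE 0.11, adjusted p = 2.3e-10). Its second probe set gave −2.78 and the same call. The ES values of CCNE2 lay close to the background of 4.26, where folds are understated.

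Cyclins of later phases differed less. CCNB1, the mitotic partner of CDK1, read 11.36 to 11.97 on the ES arrays and 10.64 to 10.78 in fibroblasts, a rise of 1.02 (SE 0.10) that was 0.96 and under the 2-fold minimum without ORMES-22 replicate A. CCNF, the F-box cyclin of a ubiquitin ligase, rose by 1.10 (adjusted p = 2.4e-07). CCNA2, the somatic A-type cyclin of S and G2 phases, differed by 0.41 (SE 0.09, adjusted p = 0.0021), and CCNB2 by 0.88 (SE 0.16, adjusted p = 0.00045), both under the 2-fold minimum. CCNA1, the A-type cyclin best known from the male germ line, rose by 1.32 (SE 0.37, adjusted p = 0.009), but its level differed widely among the ES arrays, as described with the line comparisons. Against fibroblasts it rose in rPESC-2 (2.32, adjusted p = 0.001), with uncalled differences in ORMES-9 (0.53) and ORMES-22 (1.12, adjusted p = 0.056).

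**Figure D2:**
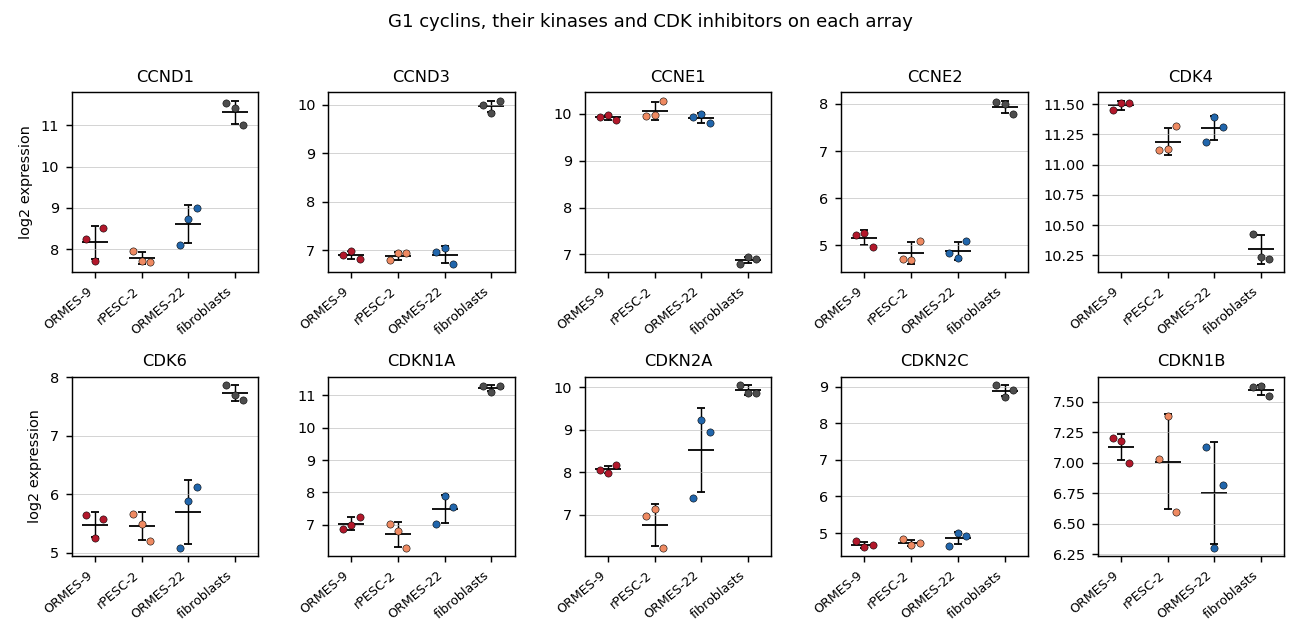
Log2 expression of 4 G1 cyclins, CDK4, CDK6 and 4 CDK inhibitors. Points are single arrays (replicates A, B and C from left to right in each group), and the horizontal mark and bar are the group mean and SD (n = 3). Vertical scales differ between genes. The fibroblast points lie above all ES points for CCND1, CCND3, CCNE2, CDK6 and all 4 inhibitors shown, and below them for CCNE1 and CDK4. The ES and fibroblast values of CDKN2D, the measured inhibitor not shown, overlap.

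Of 16 CDKs, 3 rose in the ES lines (CDK1, CDK3 and CDK4), 1 fell (CDK6) and 12 were not called. These shares, 18.8% higher and 6.25% lower, stand beside 14.5% and 12.9% of all genes. The 2 kinases that D-type cyclins activate differed in direction. CDK6 read 5.08, 5.57 and 6.13 (lowest, median and highest ES array), against 7.87, 7.70 and 7.61 in fibroblasts, and fell by 2.18 (4.53-fold, SE 0.18, adjusted p = 5.6e-07). Its second probe set gave an uncalled −0.86. CDK4 read 11.12 to 11.51 on the ES arrays and 10.22 to 10.43 in fibroblasts, a rise of 1.03 (SE 0.07, adjusted p = 7.9e-08). The CDK4 difference lay at the 2-fold minimum, and it was 0.99 with array medians subtracted and 0.99 without fibroblast replicate C.

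CDK1, the kinase of mitotic entry, read 10.30, 10.73 and 10.93 (lowest, median and highest ES array) and 9.54, 9.56 and 9.44 in fibroblasts, and rose by 1.12 (SE 0.15, adjusted p = 3.3e-05). CDK2, the partner of E-type and A-type cyclins, gave overlapping values of 8.67 to 9.34 and 8.66 to 8.98, with a difference of 0.18 (SE 0.10, adjusted p = 0.13). CDK3, a kinase linked to exit from quiescence, rose by 1.20 in the probe set used, while its other probe sets gave an uncalled 0.77 and −0.15. The remaining kinases are known mostly for transcription or other roles, and their differences lay between −0.96 for CDK15 and 0.75 for CDK8, a Mediator kinase, in the probe sets used. Other probe sets of CDK14 and CDK17 were called lower, at −1.20 and −1.13, where the ones used gave 0.40 and −0.52. CDK7, CDK9, CDK12 and CDK13, which phosphorylate RNA polymerase, differed by 0.18, 0.38, 0.17 and 0.03.

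The CDK inhibitors were the role group with the largest falls. Of 5 measured, CDKN1A, CDKN2A and CDKN2C fell in the ES lines, none rose, and CDKN1B and CDKN2D were not called. The share that fell was 60.0%, where 12.9% of all genes were called lower and 14.5% higher. CDKN1A encodes p21, a CIP/KIP inhibitor induced by p53. It read 6.28, 7.02 and 7.88 (lowest, median and highest ES array), against 11.30, 11.11 and 11.28 in fibroblasts, and was 17.8-fold lower (log2 −4.15, SE 0.18, adjusted p = 8.6e-10). CDKN2C, which encodes the INK4 inhibitor p18, read 4.61, 4.72 and 4.99 on the ES arrays, against 9.03, 8.71 and 8.92 in fibroblasts, and was 17.5-fold lower (log2 −4.13, SE 0.09, adjusted p = 1.3e-12). The ES values of CDKN2C lay just over the background, while its fibroblast values were far above it.

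CDKN2A, whose locus encodes the INK4 inhibitor p16 and the p53 regulator ARF, read 6.22, 7.99 and 9.23 (lowest, median and highest ES array), against 10.06, 9.86 and 9.86 in fibroblasts. It fell by 2.14 (SE 0.31, adjusted p = 7.7e-05) without overlap. Its 2 other probe sets, dimmer at means of 3.93 and 4.92 over the 12 arrays, gave −0.72 and 0.25, neither called, and which of the locus's transcripts each reads is not given. CDKN1B, which encodes p27, read 6.30 to 7.38 on the ES arrays and 7.55 to 7.63 in fibroblasts, a difference of −0.64 (SE 0.17, adjusted p = 0.0058) under the 2-fold minimum. CDKN2D, which encodes the INK4 inhibitor p19, differed by −0.43 (SE 0.13, adjusted p = 0.01). Its values overlapped, at 6.74 to 7.32 on the ES arrays and 7.25 to 7.61 in fibroblasts. All 5 inhibitors thus had lower means in the ES lines, 3 of them past the call.

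Of the 3 other genes with CDKN symbols none was called in the probe set used. CDKN3, a phosphatase that acts on CDKs, read 8.30 to 9.57 on the ES arrays and 9.90 to 10.03 in fibroblasts (difference −0.94, SE 0.17, adjusted p = 0.00048), and its second probe set was called lower at −1.54 (adjusted p = 2.9e-05). CDKN2AIP, a binding partner of ARF, differed by −0.57, and its relative CDKN2AIPNL by 0.88.

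Most origin and helicase genes rose in the ES lines. Of 16 measured, 13 rose (81.2%, beside 14.5% of all genes) and none fell (beside 12.9% of all genes). The median difference was 1.30, beside 0.15 over all genes. The loading step was represented by ORC1, the origin recognition subunit that cycles with licensing, which rose by 1.18 (SE 0.09, adjusted p = 1.9e-07) and read 8.12 to 8.58 on the ES arrays and 7.18 to 7.29 in fibroblasts. ORC3 and ORC4 rose by 1.5 and 1.16, while ORC2 and ORC5 were not called at 0.82 and 0.45. CDC6, the loader, read 8.76 to 9.36 on the ES arrays and 7.93 to 8.09 in fibroblasts, and rose by 1.10 (SE 0.09), with 1.20 and the same call in its second probe set.

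The helicase subunits MCM3 and MCM2 showed the largest rises of this group. MCM3 read 11.57, 11.64 and 11.98 (lowest, median and highest ES array), against 8.97, 8.86 and 8.68 in fibroblasts, a rise of 2.84 (7.14-fold, SE 0.08, adjusted p = 2e-11). MCM2 read 11.59, 11.76 and 12.01, against 9.25, 9.07 and 9.03 in fibroblasts, a rise of 2.67 (6.36-fold, SE 0.08, adjusted p = 2.4e-11). The 9 ES arrays spanned less than 0.5 for each of these genes, while the gap to the nearest fibroblast array was several times that span. MCM4 rose by 1.74 (adjusted p = 5.4e-10), and its 3 other probe sets gave a called 1.08 and uncalled values of 0.91 and 0.11, the last near the background. MCM5 rose by 1.28, with 1.63 in its second probe set. MCM10, a replication factor that binds the helicase, rose by 1.63 (SE 0.11).

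CDC45 and the GINS complex join the MCM ring to make the active helicase. CDC45 read 8.84, 9.11 and 9.36 (lowest, median and highest ES array), against 7.97, 7.72 and 7.65 in fibroblasts, and rose by 1.31 (SE 0.09, adjusted p = 5.8e-08). GINS2 rose by 1.81, GINS3 by 1.58 and GINS1 by 1.05 (SE 0.08, 0.12 and 0.06). GINS4, the remaining subunit, read 7.62 to 8.22 on the ES arrays and 7.78 to 7.81 in fibroblasts, with a difference of 0.07 (SE 0.09, adjusted p = 0.53). The subunits of this complex therefore did not give the same result, and GINS4 was the one whose groups overlapped.

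**Figure D3:**
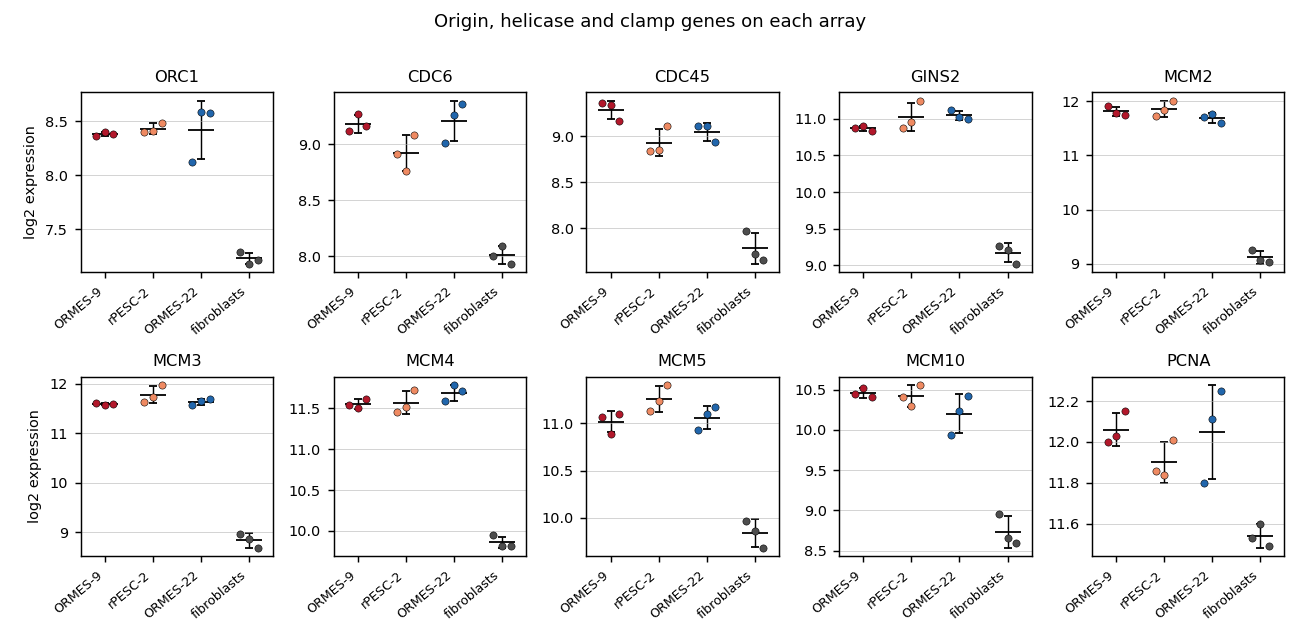
Log2 expression of 9 origin and helicase genes and of PCNA. Points are single arrays (replicates A, B and C from left to right in each group), and the horizontal mark and bar are the group mean and SD (n = 3). Vertical scales differ between genes. In all 10 panels every ES array lies above every fibroblast array, with the narrowest separation for PCNA. Of the 79 genes, 45 were separated in this direction and 15 in the other. The share of all genes separated in this way was not counted. Of the origin and helicase genes not shown, GINS4 overlapped, and ORC5 was separated by 0.17, less than PCNA.

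Of the other MCM symbols, MCM8, a helicase of homologous recombination, rose by 1.55 (SE 0.11), and MCM3AP, an mRNA export factor named for binding MCM3, rose by 1.09. MCM9, the partner of MCM8, was not called (0.29, SE 0.12, adjusted p = 0.05) and differed among the ES lines instead. PCNA, the sliding clamp of DNA polymerases, read 11.80, 12.01 and 12.25 (lowest, median and highest ES array) and 11.53, 11.60 and 11.49 in fibroblasts, a difference of 0.46 (SE 0.09, adjusted p = 0.00058) under the 2-fold minimum. TOP2A, the topoisomerase that untangles replicated chromosomes, rose by 1.18 (SE 0.14, adjusted p = 1.5e-05), with 1.83 in its second probe set. MKI67, the proliferation marker that coats mitotic chromosomes, rose by 1.09 (SE 0.11, adjusted p = 3.3e-06), and its dimmer probe sets gave an uncalled 0.77 and 0.00.

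Among the E2F transcription factors, E2F5 and E2F7 rose (28.6%, beside 14.5% of all genes) and 5 were not called. E2F5, a repressor-type E2F that acts with RB-family pocket proteins, had the largest rise of all 79 genes. It read 9.90, 10.10 and 10.53 (lowest, median and highest ES array), against 6.91, 6.77 and 6.72 in fibroblasts, a 10.3-fold rise (log2 3.36, SE 0.06, adjusted p = 4e-13). E2F7, an atypical repressor, rose by 1.31 (SE 0.12), but its second probe set, near the background, gave −0.11. The activators E2F1, E2F2 and E2F3 differed by 0.00, 0.85 and 0.46, with overlapping values of 7.83 to 8.36 and 7.87 to 8.12 for E2F1. E2F4 differed by 0.28 and E2F8 by −0.21.

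The CDC25 phosphatases activate CDKs by removing inhibitory phosphates. CDC25C, which acts at mitotic entry, read 8.72, 9.04 and 9.35 (lowest, median and highest ES array), against 6.63, 6.40 and 6.34 in fibroblasts, a rise of 2.53 (SE 0.13, adjusted p = 6.6e-09), with 1.84 and the same call in its second probe set. CDC25A, which acts at S phase entry and later, rose by 1.71 (SE 0.12). Of its other probe sets, the bright one gave a called 1.23 and the dim one −0.75. CDC25B had lower means in the ES lines, with a difference of −0.91 (SE 0.10, adjusted p = 7.7e-06) that stayed under the 2-fold minimum. CDC14A, CDC14B and CDC14C, phosphatases that oppose CDKs, differed by 0.46, 0.16 and −0.07, and CDC14A was near the background throughout (3.66 to 4.70).

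The Aurora kinases of mitosis rose. AURKB, of the chromosomal passenger complex, read 10.13, 10.59 and 10.88 (lowest, median and highest ES array), against 8.47, 8.45 and 8.30 in fibroblasts, a rise of 2.16 (SE 0.13, adjusted p = 1.7e-08), although its second probe set, at the background, gave 0.41. AURKA, of the spindle poles, rose by 1.11 (SE 0.07, adjusted p = 5.9e-08) and read 10.52 to 10.80 on the ES arrays and 9.46 to 9.66 in fibroblasts. AURKC, known from meiosis, differed by 0.44. Subunits of the anaphase-promoting complex, which ends mitosis by marking cyclins for destruction, were not called: CDC16 differed by 0.72 and CDC26 by −0.74. The 3 other probe sets of CDC16 differed among themselves, at a called 1.11 and an uncalled 0.58 and −0.03. The remaining symbols include genes with other main roles, and none was called: CDC37, a co-chaperone of kinases (0.23), CDC20B (0.11), the splicing factor CDC5L (−0.38), CDC73 of a transcription elongation complex (−0.77) and AURKAIP1 (0.24).

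Other probe sets bore on 19 of the 37 called genes. Of their 28 further probe sets, 23 had the sign of the one used, 11 were called the same way, 17 were not called and none was called the opposite way. Of the uncalled genes, 24 had 47 further probe sets, and 4 of these were called, 1 higher (CDC16) and 3 lower (CDK14, CDK17 and CDKN3). Taken line by line, with the same fibroblast arrays each time, ORMES-9 had 27 of the 79 genes higher and 7 lower, where 15.4% and 12.7% of all genes were called. In rPESC-2 the counts were 29 higher and 8 lower, where 15% and 12.9% of all genes were called. In ORMES-22 they were 26 higher and 8 lower, where 13.4% and 13.1% of all genes were called. MKI67 and TOP2A were under the 2-fold minimum in ORMES-22 alone of these comparisons, at 0.64 and 0.82, against 1.56 and 1.24 in ORMES-9 and 1.07 and 1.48 in rPESC-2. The TOP2A level of ORMES-22 was not called different from that of ORMES-9 (0.42, adjusted p = 0.21) or rPESC-2 (0.66, adjusted p = 0.054). Without ORMES-22 replicate A the counts for the ES lines together were 29 higher and 8 lower.

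A separate list held 89 cell cycle genes outside the symbol rule, of which 59 were measured. Of these, 20 rose and 4 fell in the ES lines (33.9% and 6.78%, beside 14.5% and 12.9% of all genes), and the median difference was 0.73, beside 0.15 over all genes. The 4 largest differences were rises: WEE1, the kinase that restrains CDK1, by 2.89, MYBL2, a transcription factor of G2 and M phase genes, by 2.78, TFDP2, a dimer partner of E2Fs, by 2.75, and GMNN, the geminin that blocks relicensing, by 2.17 (SE 0.11, 0.10, 0.14 and 0.08). WEE1 read 11.10, 11.41 and 11.65 (lowest, median and highest ES array) and 8.55, 8.49 and 8.39 in fibroblasts. The 22 replication genes of the list held 10 rises and no fall, and their median was 0.85, to be read against the same shares and median of all genes. The 4 that fell were BUB3 of the spindle checkpoint (−2.07), GADD45A, a stress-induced growth arrest gene (−1.91), RRM2B, a ribonucleotide reductase subunit (−1.34), and MDM2, the ubiquitin ligase of p53 (−1.20). GADD45A, RRM2B and MDM2 are known p53 targets, as is CDKN1A.

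The comparisons among the ES lines addressed how each parthenogenetic line differs from the biparental line and from the other. Few of the 79 genes differed. The median size of a difference, regardless of sign, was 0.18 for ORMES-9 minus ORMES-22, 0.19 for rPESC-2 minus ORMES-22 and 0.16 for ORMES-9 minus rPESC-2, with median standard errors of 0.12 in each. Over all genes these medians were 0.13, 0.14 and 0.12, and for the ES lines minus fibroblasts the median was 0.91 for the 79 genes and 0.45 for all genes. Only MCM9, CDKN2A and CCNA1 were called in any of the 3 comparisons on all 12 arrays. These comparisons share arrays, so their calls do not stand apart from each other.

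**Figure D4:**
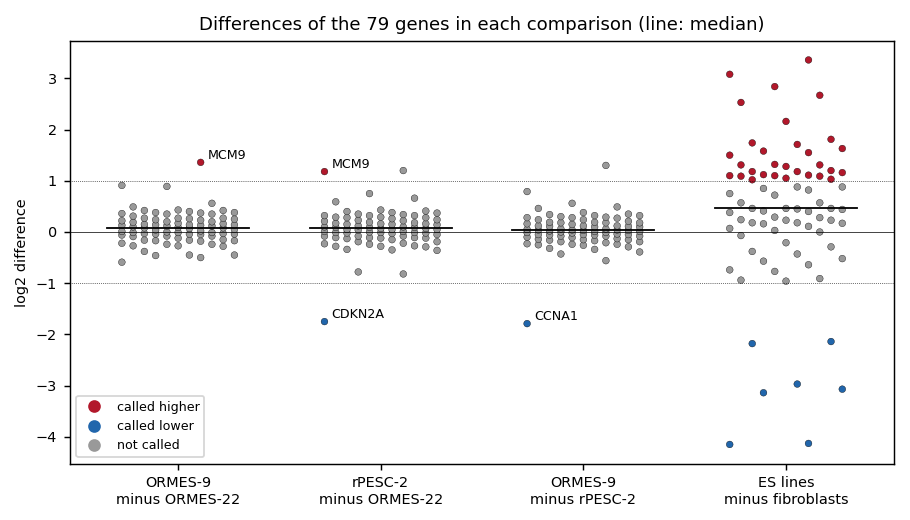
Log2 differences of the 79 genes in the 3 comparisons among ES lines and in the comparison with fibroblasts. Each point is a gene, spread sideways only to avoid overlap, the horizontal line is the median, and dotted lines mark a 2-fold difference. MCM9 is called in both comparisons with ORMES-22, CDKN2A in rPESC-2 minus ORMES-22 and CCNA1 in ORMES-9 minus rPESC-2.

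In ORMES-9 against ORMES-22, 1 of the 79 genes was higher, where 1.39% of all genes were called higher. None was lower by limma, where 0.892% of all genes were called lower. Of the 79 genes, 20 had an unadjusted limma p under 0.05, beside 3386 of all 14132 genes. MCM9, which acts with MCM8 in homologous recombination and mismatch repair, read 6.31, 6.47 and 6.16 in ORMES-9, 6.11, 6.23 and 6.05 in rPESC-2, 4.85, 4.66 and 5.34 in ORMES-22 and 5.57, 5.50 and 5.44 in fibroblasts. ORMES-22 was the lowest group, and its arrays did not overlap with those of any other. The difference was 1.36 (2.57-fold, SE 0.15, adjusted p = 0.00015), and it kept its call without any single array (1.22 to 1.56). A further 5 genes passed the adjusted p under the 2-fold minimum: MKI67 at 0.91, CDK12 at 0.56, CDK7 at 0.49, E2F3 at 0.38 and E2F5 at −0.50. For CDK12 the call depended on the probe set: of its 4 others, 3 were called higher in ORMES-9 (1.14, 1.20 and 1.38) and the fourth gave 0.98, under the 2-fold minimum. In rPESC-2 minus ORMES-22, 2 of these 4 were called higher (1.07 and 1.11), against 0.38 in the probe set used.

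MKI67 was graded over the groups. It read 9.91, 9.86 and 9.61 in ORMES-9, 9.10, 9.28 and 9.54 in rPESC-2, 9.07, 8.88 and 8.68 in ORMES-22 and 8.41, 8.17 and 8.13 in fibroblasts. No array of 1 group overlapped with another group in this order. ORMES-9 exceeded ORMES-22 with an adjusted p of 0.0017 (SE 0.14), while ORMES-9 minus rPESC-2 (0.49, adjusted p = 0.067) and rPESC-2 minus ORMES-22 (0.43, adjusted p = 0.10) missed the threshold. Without ORMES-22 replicate A the difference of ORMES-9 from ORMES-22 was 1.01 and called (adjusted p = 0.00069), and so was CDKN2A, at −1.02 (adjusted p = 0.0086). Between ORMES-9 and ORMES-22, PCNA differed by 0.00, CCNB1 by 0.12, CDK1 by 0.07 and AURKA by 0.04, each with an adjusted p over 0.05. TIMELESS, outside the symbol rule, had the same order of groups as MKI67 and is described below.

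In rPESC-2 against ORMES-22, 1 of the 79 genes was higher and 1 lower, where 1.03% and 0.665% of all genes were called. MCM9 was higher by 1.18 (2.27-fold, SE 0.15, adjusted p = 0.00071) and kept its call without any single array. CDKN2A read 6.97, 7.14 and 6.22 in rPESC-2, against 7.39, 9.23 and 8.96 in ORMES-22, and was 8.06, 7.99 and 8.17 in ORMES-9. The rPESC-2 arrays were the lowest of all, and ORMES-22 replicate A lay below its sister arrays and nearer to rPESC-2. The fall was 1.75 (3.37-fold, SE 0.38, adjusted p = 0.023), and the dim probe sets of the gene gave −0.12 and −0.09. The call rested on few arrays, and it was lost on leaving out ORMES-22 replicate B (−1.40, adjusted p = 0.087), ORMES-22 replicate C (−1.54, adjusted p = 0.077) or rPESC-2 replicate C (−1.47, adjusted p = 0.078), and in a fit of only the 6 arrays compared (adjusted p = 0.19).

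ORMES-22 replicate A weighed most on this comparison. Without it 7 of the 79 genes were called: CCNA1 (1.96), MCM9 (1.13), CDK19 (1.08) and CDKN3 (1.06) were higher in rPESC-2, and CDKN2A (−2.32), CCND1 (−1.08) and CDKN1A (−1.01) were lower, where 2.55% and 1.54% of all genes were called. In replicate A, 3 of the 79 genes stood 2-fold or more from the mean of the sister arrays (3.8%, beside 3.5% of all genes). They were CCNA1 by 2.28, CDK19, a Mediator kinase, by 1.46 and CDKN2A by −1.71. With all arrays CCND1 read 7.95, 7.72 and 7.68 in rPESC-2 and 8.09, 8.73 and 9.0 in ORMES-22, a difference of −0.82 (SE 0.24, adjusted p = 0.076). CDKN1A read 7.02, 6.82 and 6.28 in rPESC-2 and 7.04, 7.88 and 7.55 in ORMES-22, a difference of −0.78 (SE 0.22, adjusted p = 0.064). Both genes had their lowest ORMES-22 value in replicate A.

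Among the ES lines, fibroblast marker transcripts were highest on average in ORMES-22, as were CCND1, CDKN1A and CDKN2A. Within ORMES-22 these 3 genes were lowest in replicate A. The marker mean hardly differed between the ORMES-22 arrays, but single markers went both ways. TWIST1, VIM, COL1A1, COL3A1 and THY1 were also lowest in replicate A, while COL6A3, COL1A2 and DCN were highest there. The mean over the 10 measured of 11 markers was 7.49 to 7.71 on the ORMES-9 arrays, 7.18 to 7.73 on the rPESC-2 arrays, 8.11 to 8.26 on the ORMES-22 arrays and 10.9 to 10.95 on the fibroblast arrays. TWIST1 read 5.52 to 6.29 in ORMES-9, 6.10 to 7.03 in rPESC-2, 8.28 to 8.64 in ORMES-22 and 9.37 to 9.63 in fibroblasts. Of the 10 measured markers, COL6A3 and TWIST1 were called lower in rPESC-2 than in ORMES-22 (−1.84 and −1.8), and no other was called. LUM and FAP read at most 3.64 and 4.15 in ORMES-22, under the background. CCND1, CDKN1A and CDKN2A were all high in fibroblasts. The part of other cells, feeders included, in the differences of these 3 genes was not tested.

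In ORMES-9 against rPESC-2, 1 of the 79 genes was lower, where 0.87% of all genes were called lower. None was higher by limma, where 0.764% of all genes were called higher. Of the 79 genes, 21 had an unadjusted limma p under 0.05, beside 3045 of all 14132 genes. CCNA1 read 4.89, 4.54 and 4.71 in ORMES-9, against 6.48, 6.60 and 6.44 in rPESC-2, while ORMES-22 gave 6.83, 4.59 and 4.50 and fibroblasts 3.97, 4.22 and 4.37. All rPESC-2 arrays and ORMES-22 replicate A lay between 6.44 and 6.83, and all other ES arrays between 4.50 and 4.89. The fall was 1.79 (3.46-fold, SE 0.46, adjusted p = 0.045). The SD was 0.18 in ORMES-9 and 0.08 in rPESC-2, against 1.32 in ORMES-22, which enters the shared SE from outside the comparison. Without its replicate A the same difference had an adjusted p of 1.7e-06, and CDKN2A was called as well, higher in ORMES-9 by 1.30 (adjusted p = 0.0012). Leaving out any fibroblast, rPESC-2 or ORMES-9 array lost the call of CCNA1 (−1.70 to −1.88, adjusted p = 0.07 to 0.15). CDK7 (0.56), ORC3 (−0.56) and CCNF (−0.43) passed the adjusted p under the 2-fold minimum.

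**Figure D5:**
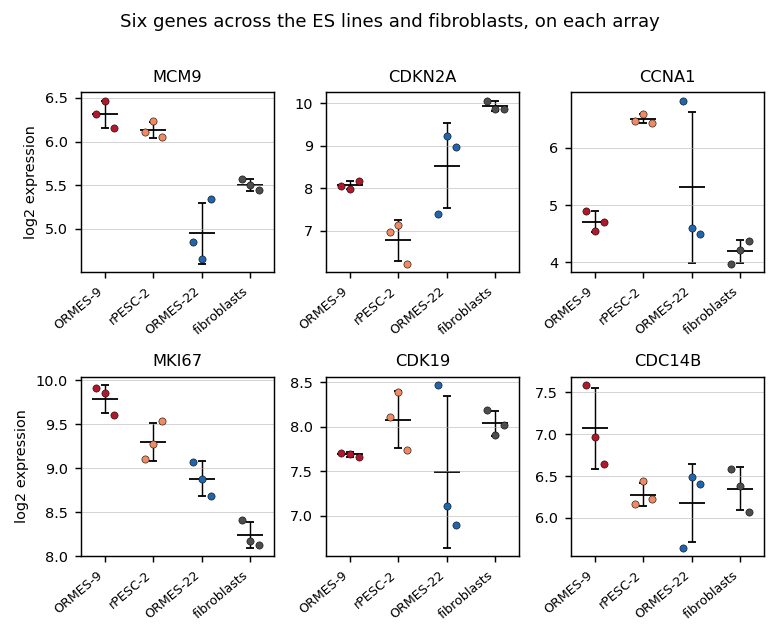
Log2 expression of MCM9, CDKN2A, CCNA1, MKI67, CDK19 and CDC14B. Points are single arrays (replicates A, B and C from left to right in each group), and the horizontal mark and bar are the group mean and SD (n = 3). Vertical scales differ between genes. ORMES-22 replicate A lies apart from its sister arrays for CDKN2A, CCNA1 and CDK19.

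Several of the genes with large differences from fibroblasts had close levels in the 3 lines, unlike CCND1 and CDKN1A above. CCNE1 differed by 0.01, 0.15 and −0.14, and CCND3 by −0.01, −0.02 and 0.01, in ORMES-9 minus ORMES-22, rPESC-2 minus ORMES-22 and ORMES-9 minus rPESC-2, with standard errors of 0.10. CDKN2C differed by −0.17, −0.12 and −0.06 (SE 0.11) and MCM2 by 0.13, 0.16 and −0.04 in the same order. E2F5 passed the adjusted p without reaching 2-fold. It read 9.92, 9.90 and 10.02 in ORMES-9, 10.12, 10.10 and 10.06 in rPESC-2 and 10.36, 10.44 and 10.53 in ORMES-22, with no overlap among the lines. Its differences from ORMES-22 were −0.50 (adjusted p = 0.002) in ORMES-9 and −0.35 (adjusted p = 0.023) in rPESC-2. Spread within lines was similar to that of other genes, with a median SD over the 79 genes of 0.11 in ORMES-9, 0.14 in rPESC-2, 0.19 in ORMES-22 and 0.12 in fibroblasts, and over all genes of 0.10, 0.11, 0.15 and 0.10.

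Of the 59 measured genes outside the symbol rule, 2 were called among the ES lines, TIMELESS and TYMS. In ORMES-9 minus ORMES-22, 1 was higher and 1 lower (1.69% each, beside 1.39% and 0.892% of all genes). In ORMES-9 minus rPESC-2, 1 was lower (1.69%, beside 0.87% of all genes). TIMELESS, which stabilises replication forks, read 8.81, 8.75 and 8.75 in ORMES-9, 8.07, 8.14 and 8.27 in rPESC-2, 7.70, 7.69 and 7.47 in ORMES-22 and 6.22, 6.41 and 6.05 in fibroblasts, without overlap, and was 1.15 higher in ORMES-9 than in ORMES-22 (SE 0.10, adjusted p = 3.2e-05). TYMS, the thymidylate synthase, read 9.20, 9.43 and 9.30 in ORMES-9, 10.70, 10.79 and 10.66 in rPESC-2, 10.39, 10.47 and 10.46 in ORMES-22 and 10.44, 10.42 and 10.31 in fibroblasts. It was thus low in ORMES-9 alone, by 1.41 against rPESC-2 (SE 0.08, adjusted p = 7.4e-07). In rPESC-2 against ORMES-22 none of the 59 was called by limma, and 17 had an unadjusted p under 0.05, beside 3646 of all 14132 genes.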

How the data were processed

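Total RNA of 12 samples was labelled with biotin and hybridised to Affymetrix rhesus macaque arrays, per the labels' protocols. The deposited values are log2 probe set summaries that the authors computed by RMA, per the submitters' processing notes. Its version is not given in the sources used here, and the log2 scale was read from the values. RMA makes arrays alike in distribution and compresses differences near the background.

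Control features (99 of 52865) were left out. Gene symbols came from the platform annotation: 24956 probe sets had 1 symbol, 361 several and 27449 none, and those with several were not named. Limma 3.58.1 in R 4.3.3 estimated 4 group means from the 12 arrays, with 8 residual degrees of freedom and 3.69 from the prior, and two-sided p-values adjusted over 52766 probe sets. It was tested on simulated data. The ES lines minus fibroblasts contrast is the mean of the 3 line means minus the fibroblast mean. The number of arrays limits the precision. Replicate letters did not pair the arrays: deviations of same-letter arrays correlated at −0.30 to 0.35 over 18 pairs.

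Members, lists and tests were chosen with earlier results of these data known. Named genes were the 10 largest called differences each way per comparison, a fixed set of core regulators, the extremes by level of each role group, and up to 4 called genes of the outside list. Members outside that rule were named after their values were seen, to account for each role group, as were BUB3, GADD45A, RRM2B and MDM2. Marker lists also covered keratinocytes, melanocytes, endothelium and leukocytes. Alternatives were other sample subsets, the replicate letter as a block, a background filter, median and quantile scaling, trended and robust moderation, array weights, other fold minimums, the median probe set of a gene, single lines, and each array left out. Promoter motifs were not searched, since no sequence table was used here.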

Additional observations from a re-analysis of the deposited data

How the results depend on the processing

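For the ES lines minus fibroblasts, the 37 genes called became 67 with no minimum difference and 17 at 3-fold or more, and lay between 35 and 37 when single arrays were left out. For ORMES-9 minus ORMES-22 the 1 gene called became 6 with no minimum difference and 2 with the median probe set of a gene. It became 0 at 3-fold or more (limma, 20 of the 79 at an unadjusted p under 0.05, beside 3386 of all 14132 genes). The count lay between 1 and 3 with single arrays left out, reaching 3 without ORMES-22 replicate A and without ORMES-9 replicate C. For rPESC-2 minus ORMES-22 the 2 genes called became 1 in a fit of 6 arrays or 9 ES arrays, at 3-fold or more, or with the median probe set, and 5 with no minimum difference, and lay between 1 and 7, reaching 7 without ORMES-22 replicate A. For ORMES-9 minus rPESC-2, 21 of the 79 genes had an unadjusted limma p under 0.05 on all arrays, beside 3045 of all 14132 genes. The 1 gene called became 0 in a fit of 9 ES arrays, with array medians subtracted, quantile normalisation or trended and robust moderation. It became 2 in a fit of 6 arrays or with array weights and 4 with no minimum difference, and lay between 0 and 2 with single arrays left out, at 0 for each of the 9 arrays outside ORMES-22. With the replicate letter as a block the counts were 37, 1, 2 and 0, the 0 being for ORMES-9 minus rPESC-2 (CCNA1, adjusted p = 0.054), and this block changed no other of these counts. With the median probe set, E2F7 gave −0.11, CDK3 −0.15 and CDKN2A 0.25 in ES lines minus fibroblasts, each the reverse of the value reported, since a dimmer or different probe set then stands for the gene.

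Over 120 gene results and 2802 settings, 2717 were counted as unchanged, 68 lost the call, 14 gained it and 3 reversed. A change of sign was counted as reversed only where the main result was called, and otherwise as unchanged. Genes near a 2-fold difference, such as CDK4 and CCNB1, lost calls through the minimum alone. The 3 arrays a group limit what is called among the ES lines, where the median standard error was 0.12. CCNB3 and CDC14A lay near the background, and differences of such genes are understated.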

Other observations

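CDC14B, a phosphatase that opposes CDKs, had its highest values in ORMES-9. It read 7.59, 6.97 and 6.64 in ORMES-9, 6.17, 6.44 and 6.23 in rPESC-2, 5.64, 6.49 and 6.40 in ORMES-22 and 6.59, 6.38 and 6.07 in fibroblasts. The difference of ORMES-9 from ORMES-22 was 0.89 (SE 0.25, limma adjusted p = 0.065), and it was called, at 1.11 (adjusted p = 0.037), without ORMES-9 replicate C. MDM2, outside the symbol rule, read 5.08, 5.13 and 5.24 in ORMES-9, 5.88, 5.72 and 5.76 in rPESC-2, 5.71, 6.37 and 6.02 in ORMES-22 and 6.84, 7.15 and 6.58 in fibroblasts, with ORMES-9 the lowest group without overlap. Among markers of other cells, the keratinocyte, melanocyte, endothelial and leukocyte lists had array means of 7.29 to 7.60, 4.01 to 4.54, 5.48 to 5.87 and 4.34 to 4.68 over all groups. The mean of the pan-leukocyte marker PTPRC was under the background in each group. Endothelial markers were opposed in ES lines minus fibroblasts: PECAM1 was called lower (−1.37), VWF called higher (1.06), and CDH5 was not called (0.97). The keratinocyte list joined KRT10 (ES mean 10.31) and the dim KRT1 (4.58), neither called. The ES marker list (7 of 10 measured) averaged 10.05 to 10.27 on the ORMES-9 arrays, 10.21 to 10.25 on rPESC-2, 10.07 to 10.26 on ORMES-22 and 5.12 to 5.36 on fibroblast arrays.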
